A study of Mus musculus with 6 samples.

Results

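The genes described here are 9 immediate-early genes of 3 families, Egr1, Egr2, Egr3, Ier2, Ier3, Ier5, Klf2, Klf4 and Klf6, out of 21938 protein-coding genes of the mouse annotation. They were taken by name, and every CUT&RUN peak that touched the gene body or the 50 kb on either side was assigned to the gene. In CUT&RUN, an antibody directs a nuclease to a chromatin mark and the released DNA is sequenced. All libraries came from bone marrow-derived macrophages (BMDMs) of C57BL/6 mice, grown for several days in medium conditioned by L929 cells, and each treatment lasted 1 h. The stimulated group received lipopolysaccharide (LPS), a component of the bacterial outer membrane, and the control group received PBS. Each group had 1 library for H3K4me1, 1 for H3K27ac and 1 for IgG, and the 4 libraries of the histone marks had a peak list. The windows of the 9 genes held 8 of the 4200 LPS H3K27ac peaks, 0 of the 52 PBS H3K27ac peaks, 141 of the 73049 LPS H3K4me1 peaks and 125 of the 64758 PBS H3K4me1 peaks.

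Immediate-early genes are switched on within minutes of a stimulus without new protein synthesis, from promoters that serum response factor, NF-kB, AP-1 and CREB family proteins occupy or reach quickly. EGR proteins are zinc-finger transcription factors, and Egr2 is also a regulator of monocyte and macrophage genes. KLF proteins are zinc-finger factors that bind GC-rich elements, and among them Klf2 and Klf4 are known for restraining and shaping macrophage activation, whereas Klf6 is known for promoting inflammatory gene expression. IER proteins are products of early response genes of varied function, and among them Ier3 is known as a regulator of cell survival. Monomethylation of histone H3 at lysine 4 (H3K4me1) is carried by enhancers before and during use, and acetylation at lysine 27 (H3K27ac) by active enhancers and promoters.

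Each library is a bulk sample, in which more cells with a mark and more of the mark per cell cannot be told apart. The libraries were single, so no value has a replicate error and no test between treatments was possible. Depth, estimated from the peak values, was 5660000 and 7210000 fragments for LPS and PBS H3K27ac, and 7000000 and 6870000 for LPS and PBS H3K4me1. Summit counts are compared as fragments per 1000000 estimated fragments of the library (FPM). The LPS H3K27ac peaks were weak, with a median of 9 fragments at the summit, against 17 in either H3K4me1 list. H3K4me1 within 10 kb of the transcription start site (TSS) was present at 8 of 8 macrophage marker genes under LPS and 6 of 8 under PBS. It was present at 2 and 1 of 4 T cell markers, 3 and 2 of 4 B cell markers, 2 and 2 of 4 neutrophil markers, 1 and 1 of 3 fibroblast markers and 0 of 2 liver markers. Of all protein-coding genes, 47.6% had such a peak under LPS and 41.0% under PBS. So few markers of each other cell type therefore say little about cell identity.

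The sequences shown for the acetylation result are those around an LPS H3K27ac summit in Klf6 and one just beyond it, neither of which touches an exon, the summit upstream of Ier2, and the summit far upstream of Klf2. Each run is the GRCm38 reference from 100 bases before to 100 bases after the summit, written 5′ to 3′ along the strand of the gene. Capitals mark matches to any of the motifs described further on, and a run without capitals held none. The Klf6 runs lie on the plus strand at chr13:5863240-5863440 and chr13:5871657-5871857, the Ier2 run on the minus strand at chr8:84663015-84663215 and the Klf2 run on the plus strand at chr8:72295882-72296082.
Klf6, intron, 1858 bp after the TSS: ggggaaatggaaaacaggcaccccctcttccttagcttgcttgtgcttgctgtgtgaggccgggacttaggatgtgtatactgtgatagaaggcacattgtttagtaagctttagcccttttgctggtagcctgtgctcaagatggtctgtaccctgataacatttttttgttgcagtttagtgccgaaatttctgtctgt
Klf6, intergenic, 10275 bp after the TSS: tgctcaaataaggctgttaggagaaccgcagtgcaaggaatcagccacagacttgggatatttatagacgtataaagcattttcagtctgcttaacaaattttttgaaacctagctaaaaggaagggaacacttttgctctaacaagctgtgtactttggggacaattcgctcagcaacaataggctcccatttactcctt
Ier2, intergenic, 263 bp before the TSS: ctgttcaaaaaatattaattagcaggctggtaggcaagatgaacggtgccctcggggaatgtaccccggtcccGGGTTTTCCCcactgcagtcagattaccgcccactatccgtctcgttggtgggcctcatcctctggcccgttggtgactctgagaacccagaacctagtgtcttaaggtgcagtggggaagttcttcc
Klf2, intergenic, 23051 bp before the TSS: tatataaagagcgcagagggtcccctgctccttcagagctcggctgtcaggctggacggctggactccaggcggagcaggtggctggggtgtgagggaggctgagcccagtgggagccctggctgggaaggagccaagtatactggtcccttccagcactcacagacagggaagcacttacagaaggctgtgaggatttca

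For H3K4me1, the runs shown are the summit with the highest LPS to PBS ratio in the windows, downstream of Ier5 on the minus strand at chr1:155086996-155087196, and the promoter summits that the PBS list had at Ier5, on the minus strand at chr1:155099811-155100011, and at Klf2, on the plus strand at chr8:72318819-72319019.
Ier5, intergenic, 12540 bp after the TSS, LPS summit: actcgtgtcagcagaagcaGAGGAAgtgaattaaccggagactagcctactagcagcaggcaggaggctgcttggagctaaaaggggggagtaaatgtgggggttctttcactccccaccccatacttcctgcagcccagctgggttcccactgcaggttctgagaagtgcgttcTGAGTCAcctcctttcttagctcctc
Ier5, promoter, 275 bp before the TSS, PBS summit: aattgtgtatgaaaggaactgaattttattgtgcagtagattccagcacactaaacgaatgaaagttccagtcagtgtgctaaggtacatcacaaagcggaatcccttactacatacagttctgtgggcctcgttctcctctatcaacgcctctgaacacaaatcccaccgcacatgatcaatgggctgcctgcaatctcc
Klf2, promoter, 114 bp before the TSS, PBS summit: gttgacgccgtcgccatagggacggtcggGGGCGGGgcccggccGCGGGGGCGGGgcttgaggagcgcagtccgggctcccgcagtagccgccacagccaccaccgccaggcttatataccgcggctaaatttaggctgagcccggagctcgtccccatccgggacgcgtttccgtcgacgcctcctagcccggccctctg

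H3K27ac peaks were found at Klf6, Ier2 and Klf2 under LPS and at none of the 9 genes under PBS. Klf6 had 6 of the 8 peaks, Ier2 had 1 and Klf2 had 1, whereas Egr1, Egr2, Egr3, Ier3, Ier5 and Klf4 had 0. The window of the same definition held an LPS H3K27ac peak in 27.7% of all protein-coding genes and in 22.1% of the 7774 genes of at most 10 kb, the size class of all 9 members, so 3 of 9 was near the background. At least 6 peaks, the number at Klf6, were found in 0.424% of genes of at most 10 kb. Klf6 was picked here as the member with the most peaks. With peaks within 1000 bp joined, the 8 member peaks became 6, because those in the first part of Klf6 merged. The share of genes was not taken for joined peaks. A PBS H3K27ac peak was found in 0.588% of all genes, so a count of 0 among 9 says nothing particular about the members. The smallest summit of the PBS list had 8 fragments, and 6 of the 8 LPS peaks at the members had at least that number. These counts are not scaled for depth, which was higher in the PBS library. The PBS list had a median of 11 fragments, and a count alone does not decide whether a peak is called.

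**Figure D1:**
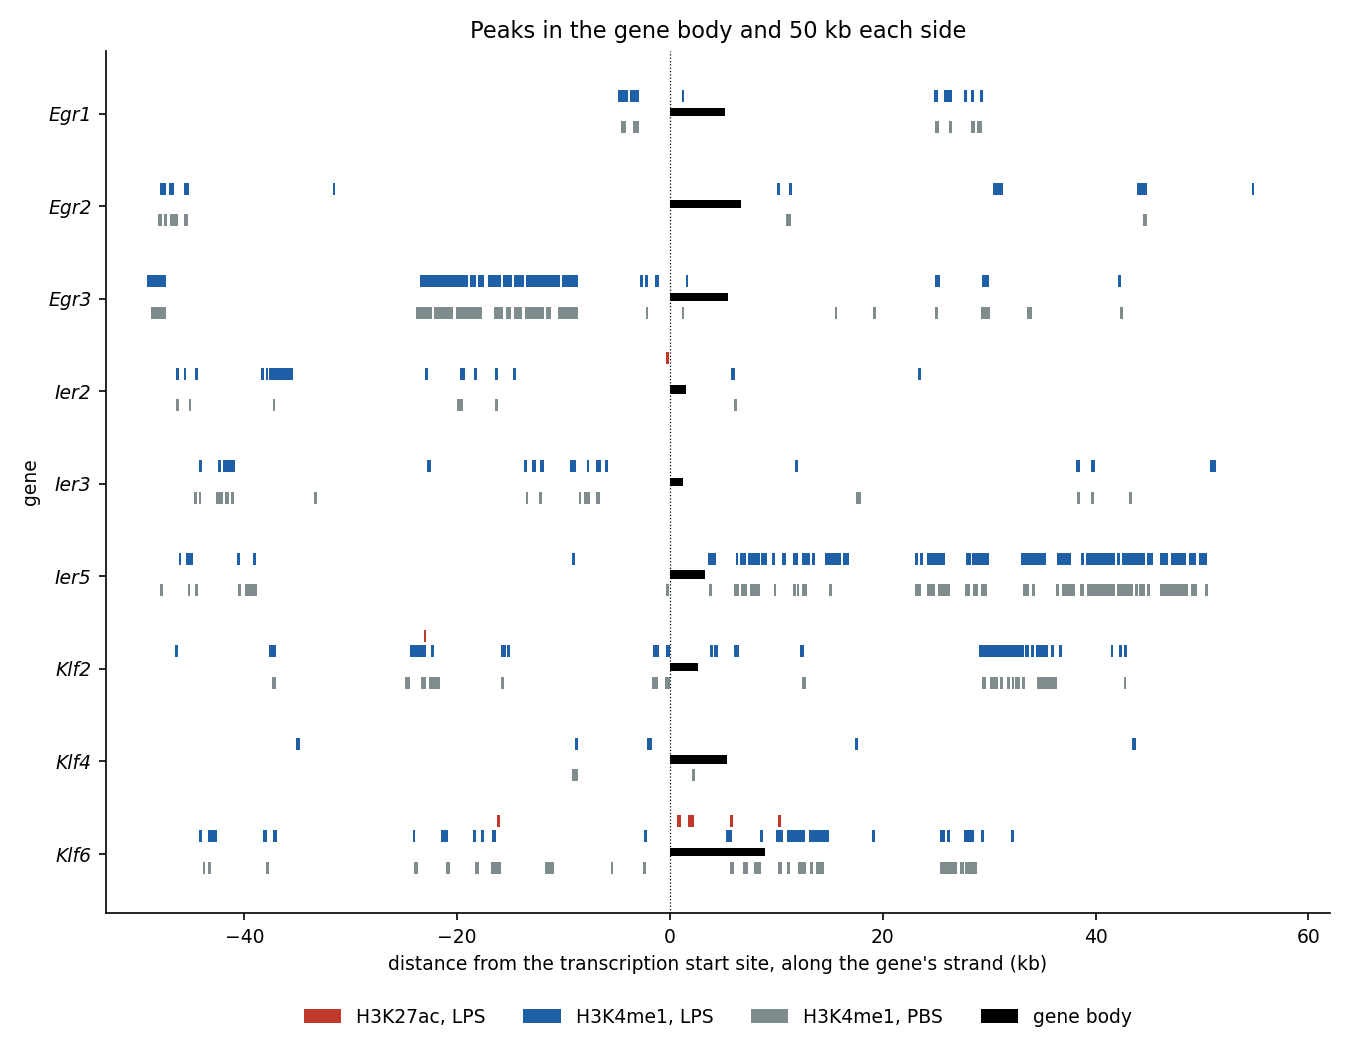
Peaks of 3 lists along the windows of the 9 genes, by distance from the TSS in kb along the gene's strand; red bars are LPS H3K27ac, blue LPS H3K4me1, grey PBS H3K4me1 and black the gene body, and narrow peaks are drawn at least 0.25 kb wide. No PBS H3K27ac peak fell in these windows; the 6 red bars at Klf6 contrast with 0 at all 3 Egr genes, and Ier5 and Egr3 carried long runs of H3K4me1.

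Klf6 lies on the plus strand of chromosome 13, from 5861482 to 5870394, and no other protein-coding gene reached into its window. Of its 6 LPS H3K27ac peaks, 4 had the summit in an intron of the gene, 1 lay upstream and 1 beyond the gene end. The peak with the highest −log10 q, at 6.35, had its summit 1858 bp after the TSS, with 12 fragments (95% Poisson interval 6.20 to 21.0), a fold enrichment of 7.1 and rank 511 of 4200. Its neighbour 2154 bp after the TSS had 13 fragments (6.92 to 22.2) and rank 1219. The peak nearest to the TSS, 676 bp after it, was the widest of the 6 at 371 bp and had 10 fragments (4.80 to 18.4). These 3 peaks in the first part of the gene were overlapped by no H3K4me1 peak of either treatment.

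The other 3 Klf6 peaks lay in H3K4me1. The peak 5713 bp after the TSS, with 7 fragments (2.81 to 14.4), and the peak 10275 bp after it, with 9 fragments (4.12 to 17.1) and rank 915, were overlapped by H3K4me1 under both treatments. The peak 16077 bp upstream, with 6 fragments (2.2 to 13.1) and rank 2602, was overlapped by a PBS H3K4me1 peak and by no LPS one. With so few fragments the intervals of all 6 summits overlap, and no order among them can be read. At a −log10 q of at least 5, the peaks 1858 and 10275 bp after the TSS were the 2 left in all 9 windows.

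**Figure D2:**
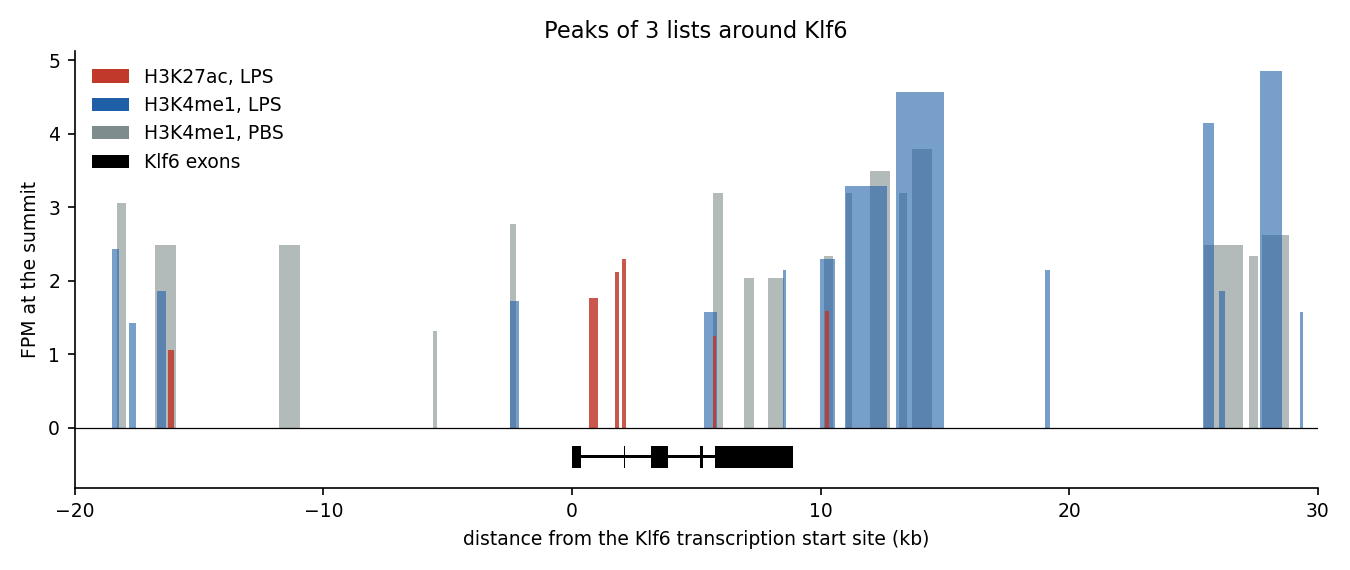
Peaks from 20 kb upstream to 30 kb downstream of the Klf6 TSS, by distance in kb; bar width is the peak, bar height the estimated FPM at its summit, and black boxes are exons. The red H3K27ac bars in the first part of the gene stand where neither H3K4me1 list has a peak, and the tallest blue bars lie beyond the gene end.

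Ier2 (chromosome 8, 84661331 to 84662852, minus strand) had its H3K27ac peak at the promoter. The peak spanned 84663049 to 84663184, with the summit 263 bp before the TSS, 9 fragments (4.12 to 17.1), a fold enrichment of 4.99 and rank 2602 of 4200. No H3K4me1 peak overlapped it, and the nearest ones were 5.74 kb from the TSS under LPS and 6.02 kb under PBS. Together with the Klf6 peak at 676 bp, it made 2 members with LPS H3K27ac within 1 kb of the TSS, where 5.01% of all genes had it. The Klf2 peak lay 23051 bp upstream of Klf2, at 72295898 to 72296057 of chromosome 8, with 8 fragments (3.45 to 15.8) and rank 2253. The nearest protein-coding TSS was that of Gm10282, 9278 bp away, and the peak lay inside H3K4me1 peaks of both treatments.

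The 6 members without H3K27ac in the window differed in how far the nearest LPS peak was. It lay 60.1 kb from the Egr2 TSS, 71.2 kb from Egr1, 95.4 kb from Ier3, 119 kb from Klf4, 136 kb from Egr3 and 1005 kb from Ier5. Ier5, the member with the most H3K4me1, was the one farthest from any LPS H3K27ac peak.

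H3K4me1 peaks were found in the windows of all 9 genes under both treatments, against 60.4% of genes of at most 10 kb under LPS and 56.5% under PBS. Within 10 kb of the TSS, 8 of 9 members had a peak under either treatment, all but Egr2, against 47.6% of all genes under LPS and 41.0% under PBS. The members had a median of 15 peaks per window in both lists, whereas genes of at most 10 kb had a median of 2 under LPS and 1 under PBS. Windows of neighbouring genes overlap, and the members are not independent of the genes around them. Of the member peaks, 108 of 141 under LPS and 98 of 125 under PBS were nearer to the member's TSS than to that of any other protein-coding gene.

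The members ranged widely. Ier5 had 33 peaks under LPS and 34 under PBS, and 0.219% and 0.116% of genes of at most 10 kb had as many. Klf6 had 21 and 21 peaks, Klf2 had 21 and 17, Egr3 had 16 and 18, and Ier3 had 15 and 15. Ier2 had 13 peaks under LPS and 6 under PBS, Egr2 had 9 and 6, Egr1 had 8 and 6, and Klf4 had 5 and 2. For Klf4, 36.9% of genes of at most 10 kb had as many peaks under LPS and 47.8% under PBS, so its window was not set apart from a typical short gene.

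**Figure D3:**
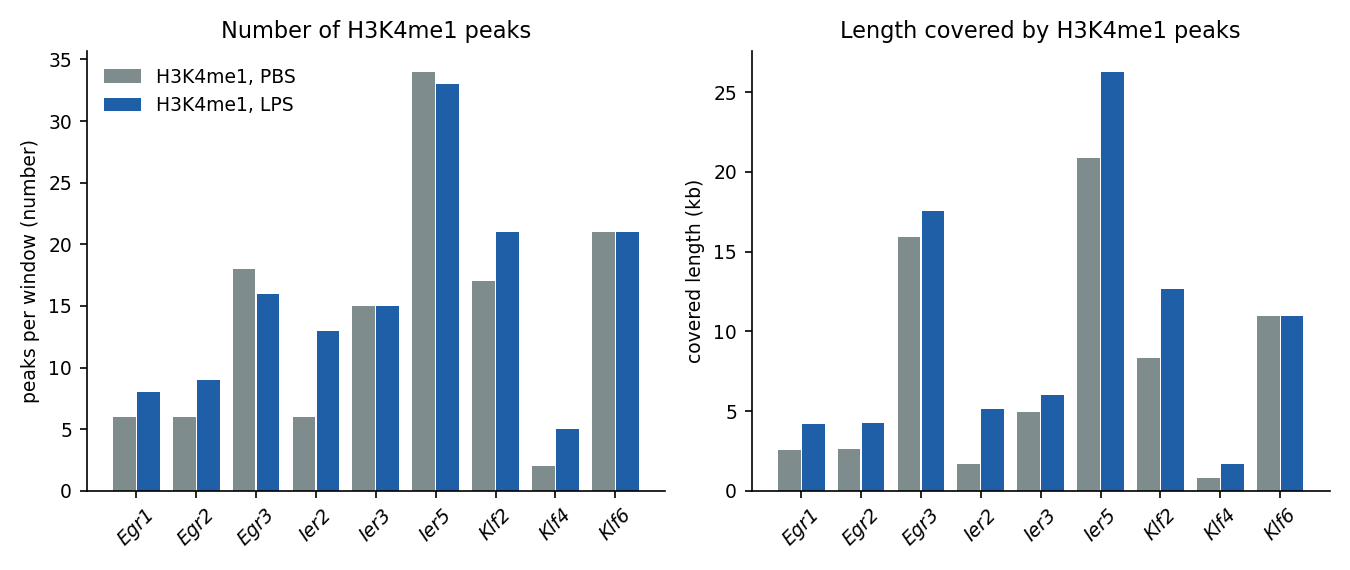
Number of H3K4me1 peaks (left) and length they cover in kb (right) in the window of each gene, with grey bars for the PBS and blue bars for the LPS library, 1 library each and no error bar. Ier5 has the tallest bars in both panels, and covered length is higher under LPS in 8 genes and equal to 3 digits at Klf6.

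Covered length in the 9 windows together was 88.6 kb under LPS and 68.7 kb under PBS, a ratio of 1.29. Over the whole lists the ratio was 1.25, so the excess in the members was near that of the lists. By gene, the ratio was 3.11 at Ier2, where 5.13 kb was covered under LPS and 1.65 kb under PBS, 2.08 at Klf4, 1.63 at Egr1, 1.61 at Egr2, 1.51 at Klf2, 1.26 at Ier5, 1.22 at Ier3, 1.10 at Egr3 and 1.00 at Klf6. Member peaks had a mean width of 629 bp (LPS) and 549 bp (PBS), against 530 and 480 bp over the lists, and a median width of 359 and 383 bp. A sum over peaks called separately in 2 libraries moves with how much was called, and the part of peak calling in these ratios was not tested.

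Of the member summits, 101 of 141 under LPS and 91 of 125 under PBS were intergenic, and 30 and 25 lay in an intron. They lay on both sides of the genes. Under LPS, 66 summits were upstream of the TSS, 4 inside the gene and 71 beyond its end. Under PBS the numbers were 57, 5 and 63. Most members, like most genes, had no H3K4me1 peak at the promoter itself. Within 1 kb of the TSS, the LPS list had a peak at 1 of 9 members, Klf2, against 24.1% of all genes, and the PBS list at 2 of 9, Klf2 and Ier5, against 15.8%. Such small counts say little about the members. The nearest peak was just outside that limit at Egr3, at 1.02 kb under LPS and 1.08 kb under PBS. At Egr1 it was 1.09 kb away under LPS. The Klf2 promoter peak had 19 fragments (11.4 to 29.7) under LPS, with the summit 295 bp before the TSS. Under PBS it had 21 fragments (13.0 to 32.1), with the summit 114 bp before the TSS. Its fold enrichment was 3.65 under LPS and 8.06 under PBS. The LPS call, at rank 70015 of 73049, lay near the weak end of its list. The PBS call stood much higher in its own, at rank 12973 of 64758. The Ier5 promoter peak, 173 bp wide with 22 fragments (13.8 to 33.3), was in the PBS list alone, and the nearest LPS peak was 3.53 kb from the TSS.

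Among the Egr genes, Egr3 had the most H3K4me1. Egr3 lies on the plus strand of chromosome 14 from 70077203 to 70082614, between Pebp4 upstream and Bin3 downstream. Peaks separated by at most 1000 bp were joined into blocks, and the longest LPS block at Egr3 ran from 23.5 to 8.64 kb upstream of the TSS, with 8 peaks that covered 89.7% of its 14.9 kb. It began within an intron of Pebp4. The same stretch under PBS was broken by a gap just over the 1000 bp limit, from 70059564 to 70060663. Its longest PBS block held 6 peaks and was 7.89 kb long, from 16.5 to 8.65 kb upstream. Block lengths thus depend on the joining limit, and PBS peaks of 1449, 1797 and 2474 bp overlapped the rest of the stretch. The strongest LPS peak there, meaning the one with the highest −log10 q, had its summit 12999 bp upstream, with 38 fragments (26.9 to 52.2) and rank 1225 of 73049. The strongest PBS peak of the window lay 47955 bp upstream in an intron of Pebp4, with 38 fragments (26.9 to 52.2) and rank 795 of 64758. The strongest LPS peak without a PBS counterpart lay 1561 bp after the TSS, in an exon of Egr3, with 22 fragments (13.8 to 33.3). The PBS list had one without an LPS counterpart at 19202 bp after the TSS, nearer to Bin3, with 27 fragments (17.8 to 39.3) and rank 3506.

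Egr1 (chromosome 18, 34859823 to 34864984, plus strand), the family member best known as a target of growth factor signalling, had H3K4me1 in a pair of peaks upstream and a cluster downstream. The upstream pair lay 4256 and 3468 bp before the TSS under LPS. The farther of them had 32 fragments under LPS and 19 under PBS, or 4.57 and 2.77 FPM, a ratio of 1.65 (0.909 to 3.09). The nearer one had 36 and 29 fragments, a ratio of 1.22 (0.726 to 2.06). Both were wider under LPS, with 1.81 kb of the pair covered against 1.04 kb under PBS. The summit ratios take no account of the local background. The fold enrichment over that background was 12.4 under LPS and 5.57 under PBS at the farther peak, and 13.2 and 4.12 at the nearer one. The downstream cluster, 24865 to 29223 bp after the TSS, held 5 LPS peaks and 4 PBS peaks. One LPS peak lay inside the gene, 1238 bp after the TSS, with 21 fragments and no PBS counterpart. Egr2 (chromosome 10, 67535475 to 67542188, plus strand) had no H3K4me1 nearer than 10.1 kb to its TSS. Its peaks formed a cluster 45.2 to 48.1 kb upstream under both treatments, and of the 5 LPS peaks downstream, all were nearer to the TSS of Ado than to that of Egr2. The strongest LPS peak of the Egr2 window, 44686 bp after the TSS, had 31 fragments (21.1 to 44.0).

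Among the Ier genes, Ier5 stood out by a domain beyond the gene end. The gene occupies 155096361 to 155099636 on chromosome 1 (minus strand), and 28 of its 33 LPS peaks and 28 of its 34 PBS peaks lay beyond the gene end. The longest LPS block ran from 32.9 to 50.5 kb after the TSS, with 11 peaks that covered 13.3 kb. The longest PBS block in it was 8.78 kb long and held 8 peaks. A gap just over the 1000 bp joining limit set it off from a PBS peak 2572 bp wide, at 155050975 to 155053546. Other PBS peaks of the stretch lay on both sides of that block, so the block lengths depend in part on the joining limit. The LPS peak with the highest −log10 q of all 9 windows lay 24642 bp after the TSS, with 49 fragments (36.3 to 64.8), a fold enrichment of 17.2 and rank 188 of 73049. The PBS peaks that overlapped it had at most 33 fragments, and the ratio of depth-scaled counts was 1.46 (0.919 to 2.34). The strongest PBS peak of the window, 40480 bp after the TSS and 2670 bp wide, had 40 fragments (28.6 to 54.5) and rank 439 of 64758.

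Ier2 and Ier3 sit among other genes, with 5 other protein-coding genes reaching into each window. Of the 13 LPS peaks in the Ier2 window, 2 were nearest to the Ier2 TSS, and the others lay nearer to Trmt1 or Lyl1. The strongest of them, 36523 bp upstream in a coding exon of Trmt1, was 2209 bp wide with 32 fragments (21.9 to 45.2), while the PBS peak in it was 262 bp wide with 24 fragments (15.4 to 35.7). Most of the covered length in the Ier2 window thus lay nearer to other genes. At Ier3 (chromosome 17, 35821684 to 35822923, plus strand), 11 of 15 peaks in either list were nearest to Ier3, and all of those were upstream. They lay in groups 41122 to 44535 bp, 12072 to 13703 bp and 5979 to 9210 bp before the TSS, with few peaks between them. The strongest PBS peak, 7751 bp upstream, had 25 fragments (16.2 to 36.9) and overlapped an LPS peak with 24, a ratio of 0.942 (0.515 to 1.72).

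Among the Klf genes, Klf2 and Klf6 had many peaks and Klf4 few. At Klf2, on the plus strand of chromosome 8 from 72319033 to 72321656, the longest block lay downstream in introns of Eps15l1. Under LPS it ran from 29.1 to 36.7 kb after the TSS, and its first peak alone was 4164 bp wide, with 34 fragments (23.5 to 47.5) and rank 1089 of 73049. Within the limits of that peak the PBS list held 7 separate peaks, in a block of 3.89 kb of which 2.47 kb was covered, with 12 to 22 fragments at their summits. The LPS peak and the PBS peak with the most fragments gave 4.86 and 3.20 FPM, a ratio of 1.52 (0.862 to 2.72). Their summits lay 30004 and 31833 bp after the TSS, so this ratio compares different positions. A cluster of 3 LPS peaks 3849, 4452 and 6378 bp after the TSS, with 17, 24 and 23 fragments, had no PBS counterpart.

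At Klf6 the longest H3K4me1 block lay just beyond the gene end, 9.99 to 15 kb after the TSS under LPS and 10.1 to 14.5 kb under PBS. Its strongest LPS peak, 13385 bp after the TSS, had 32 fragments (21.9 to 45.2) and rank 1564 of 73049. The strongest PBS peak in the Klf6 window without an LPS counterpart, 11530 bp upstream and 863 bp wide, had 17 fragments (9.90 to 27.2). Klf4 (chromosome 4, 55527143 to 55532466, minus strand) had no other protein-coding gene in its window. Its 5 LPS peaks were spread over the window with 14 to 22 fragments, and 1 of them, 8831 bp upstream, overlapped one of the 2 PBS peaks. The other PBS peak lay in a coding exon of Klf4, 2178 bp after the TSS, with 22 fragments (13.8 to 33.3).

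Whether the same sites carried H3K4me1 in the PBS-treated cells, a separate culture, was addressed by overlap of at least 1 bp. Of the member LPS peaks, 92 of 141 (65.2%, 95% Wilson interval 57.1 to 72.6%) overlapped a PBS peak, near the 61.2% (60.8 to 61.5%) of the whole list. Of the member PBS peaks, 105 of 125 (84.0%, 76.6 to 89.4%) overlapped an LPS peak, against 73.1% (72.8 to 73.5%) of the whole list. With 50% of both peaks shared, the member shares were 26.2% for LPS and 29.6% for PBS peaks, against 30.5% and 34.4% of the whole lists, and with 50% of the LPS peak alone they were 39.7% against 41.7%. With 50% of the PBS peak alone they were 68.0% against 58.1%. The member shares were thus above those of the lists at 1 bp and below them at 50% of both. At 50% of the peak alone, the LPS share was below that of its list and the PBS share above. The intervals cover counting error only, and since peaks of 1 window are not independent, the difference between members and list was not tested. By family, the share of LPS peaks with a PBS counterpart was 24 of 33 at the Egr genes, 41 of 61 at the Ier genes and 27 of 47 at the Klf genes. Peaks without a counterpart were the weaker ones: in the LPS list they had a median of 14 fragments against 20 for the others, and in the whole list the medians were also 14 and 20.

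Summit signal of overlapping peaks had a median ratio near 1. Each of the 92 LPS peaks was set against the PBS peak with the most fragments among those it overlapped, in FPM, and the median ratio was 1.05, with 51 of 92 above 1. The 49 LPS and 20 PBS member peaks without a counterpart form no pair, so the ratios do not cover them. In 13 pairs the LPS peak overlapped several PBS peaks, and taking the one with the most fragments gives the lowest ratio. The peaks overlap but the summits need not, and the paired summits lay a median of 160 bp apart and over 1000 bp apart in 6 pairs, so a ratio can compare different positions. Over the 44323 pairs of the whole list the median was 1.03. By gene, the median ratio was 1.23 at Ier5 (27 pairs), 1.21 at Egr1 (6 pairs), 1.09 at Egr2 (5 pairs), 1.02 at Klf2 (11 pairs), 0.981 at Egr3 (13 pairs), Ier2 (5 pairs) and Klf6 (15 pairs), and 0.942 at Ier3 (9 pairs). Klf4 had a single pair, at 1.47. Without the Ier5 window, which gave the most pairs, the median was 0.981, the ratio that equal fragment numbers in both libraries give.

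The 95% interval of the ratio, from counting error alone, lay above 1 in 3 of the 92 pairs and below 1 in 0. In the whole list it lay above 1 in 1.42% of pairs and below 1 in 1.75%, so pairs of this kind occurred in both directions over the genome. The first was the Ier5 peak 12540 bp after the TSS, at 155086524 to 155087244 of chromosome 1, whose summit sequence is given above. It had 56 fragments under LPS and 21 under PBS, or 8.0 and 3.06 FPM, a ratio of 2.62 (1.56 to 4.55), and 0.0699% of all pairs had a ratio as high. This was the highest of the 92 ratios, and that share takes no account of picking it from among them. Its PBS peak lay near the weak end of the PBS list, at rank 62893 of 64758. The second was the Ier5 peak 45048 bp after the TSS, with 25 and 11 fragments and a ratio of 2.23 (1.06 to 5.02). The third was the Klf6 peak 27969 bp after the TSS, with 34 and 18 fragments and a ratio of 1.85 (1.02 to 3.49). In these 3 pairs the summits were 16, 29 and 166 bp apart and the LPS peak overlapped 1 PBS peak. Paired with the nearest PBS summit, a choice made after the data were seen, the Ier5 peak 43400 bp after the TSS also had an interval above 1, with 39 and 15 fragments and a ratio of 2.55 (1.38 to 4.98). In the other 89 pairs the interval included 1, which does not show that the signal was equal.

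**Figure D4:**
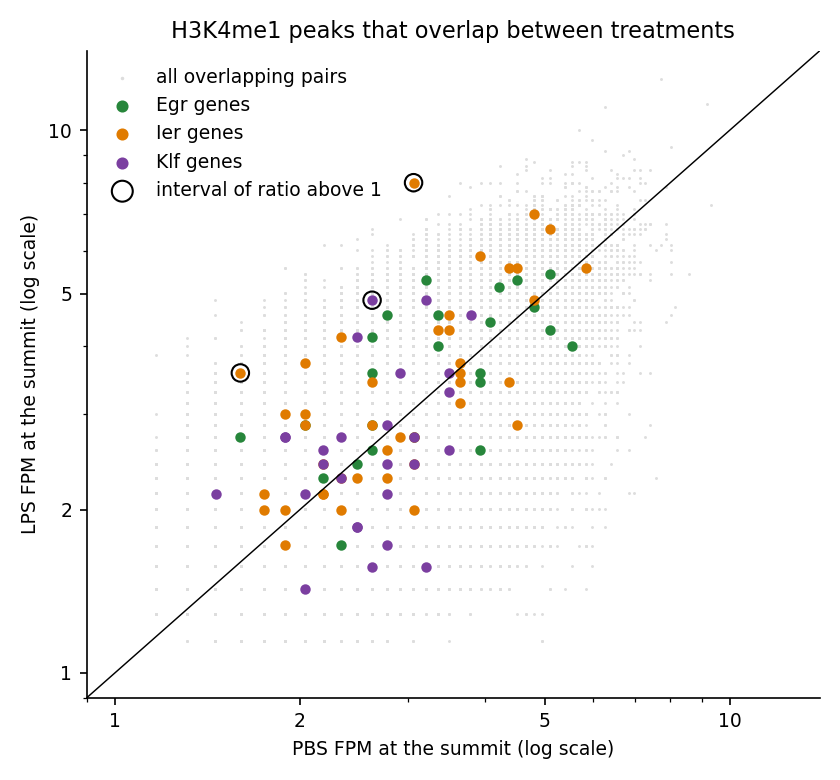
FPM at the summits of overlapping H3K4me1 peaks, PBS on the horizontal and LPS on the vertical axis, both on log scales; pale dots are all 44323 pairs, coloured dots the 92 pairs of the Egr, Ier and Klf windows, and the line marks equal values. The members lie around the line with a median ratio of 1.05, and the 3 circled pairs, 2 at Ier5 and 1 at Klf6, have an interval above 1.

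Stretches of the same length around 7 of the 8 member H3K27ac summits and the H3K4me1 summits above were searched on both strands for 7 motifs. These were the CArG box of serum response factor, the NF-kB site, the AP-1 site TGANTCA, the cAMP response element TGACGTCA, the PU.1 core GAGGAA, the EGR site GCGTGGGCG or GCGGGGGCG, and the KLF and Sp site GGGCGGG. Around the Ier2 summit there was 1 NF-kB match, 290 to 281 bp before the TSS, and 12.2% of all LPS H3K27ac peaks had at least 1. The Klf6 summit at 2154 bp had a CArG box, CCTTATTTGG, 2208 to 2217 bp after the TSS and so just outside the called peak, and 1.21% of the list had one. That summit also had an NF-kB match, and the Klf6 summit at 5713 bp had a PU.1 core, which 21.4% of the list had. The NF-kB match and the PU.1 core likewise lay outside the called peaks. The Klf2 summit and the Klf6 summits 16077 bp before and 1858 and 10275 bp after the TSS matched none of the motifs.

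At the H3K4me1 summits, the Klf2 promoter run had an EGR site and 2 KLF and Sp sites, 1 of which overlapped the EGR site. In the whole PBS H3K4me1 list 0.235% of peaks had the EGR site and 3.18% the KLF and Sp site. The run was 71.6% GC, whereas the median of that list was 48.3%, so these shares are not those of sequences of like GC. The stretch around the LPS summit of this promoter, 295 bp before the TSS, had 1 KLF and Sp site and no EGR site. The Ier5 summit at 12540 bp had an AP-1 site, which 9.94% of LPS H3K4me1 peaks had, and a PU.1 core, which 25.9% had. The Ier5 promoter run matched none. Of the 9 members, 6 had a promoter in the RefSeq table of GRCm38.p6, from 250 bases before to 50 after the start. Klf2 and Klf4 had an EGR site there, against 3.47% of all promoters, and Egr2, Ier5, Klf2 and Klf4 had a KLF and Sp site, against 25.6%. Egr2, Ier3 and Ier5 had an NF-kB match, against 19.5%, and Ier3 a PU.1 core, against 28.3%. None of the 6 had a CArG box, an AP-1 site or a cAMP response element in this stretch, which 1.63%, 7.81% and 1.79% of promoters had. Egr1, Egr3 and Ier2 were not matched in the table and are not covered by these counts. A match is a description of the letters only.

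Of the 8 member H3K27ac peaks, 3 (37.5%, 13.7 to 69.4%) were overlapped by LPS H3K4me1 and 4 (50%, 21.5 to 78.5%) by PBS H3K4me1. The shares over the whole LPS H3K27ac list were 33.6% (32.2 to 35.0%) and 29.9% (28.5 to 31.3%), inside the wide intervals of the members. The peaks without H3K4me1 under either treatment were those at the Ier2 promoter and in the first part of Klf6.

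Genes related to the members were looked at in the same windows. Among 25 other immediate-early genes, 15 had an LPS H3K27ac peak, against the 27.7% of all genes given above, and 0 had a PBS one. They were Atf3, Btg2, Dusp1, Fos, Fosb, Fosl1, Jun, Junb, Jund, Mcl1, Myc, Nr4a2, Plk3, Ppp1r15a and Zfp36. Mcl1, which encodes a survival factor of the BCL2 family, had 15 peaks, more than the 6 of Klf6, and Fosb, Junb and Dusp1 had 3 each. H3K4me1 was in the window of 25 of 25 of these genes under LPS and 23 under PBS, with medians of 11 and 9 peaks. Among 14 other KLF genes, Klf3, Klf13 and Klf16 had LPS H3K27ac, with 2, 3 and 3 peaks. Of the cofactors and regulators of EGR genes found by symbol, 2 of 7 had it, Elk1 and Elk4, with 1 peak each. Elk1 and Elk4 bind DNA together with serum response factor. Elk3 of the same family, Egr4, the EGR corepressors Nab1 and Nab2 and Srf itself had none. The 3 of 14 KLF genes and these 2 of 7 were both near the 27.7% of all genes. Ier5l, the relative of Ier5, had 1 peak.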

How the data were processed

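The CUT&RUN libraries of LPS-treated and PBS-treated BMDMs, at 1 h, were used as deposited peak lists, 1 per library, grouped by the sample labels. Per the methods, the authors aligned reads to GRCm38 with Bowtie2 2.4.4, removed blacklisted regions and called peaks with MACS2 2.2.7.1 in an nf-core pipeline. The labels name the IgG libraries as input, and these were not analysed on their own. Whether they served as the control in peak calling is not stated in the sources used here. The deposited fold enrichment, a ratio of summit coverage over local background, and the deposited −log10 p and −log10 q are the authors' values, and the deposited score was not used.

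Genes came from GENCODE release M21, another release than the authors', with the first base of the gene as the TSS. Peaks were assigned to all member windows they touched, and overlap meant at least 1 bp. Fragments at a summit and the control level were recovered from fold enrichment and −log10 p, with a pseudocount of 1 and a tolerance of 0.0005 in −log10 p. A single count fitted 99.9%, 100%, 99.4% and 99.9% of LPS H3K27ac, PBS H3K27ac, LPS H3K4me1 and PBS H3K4me1 peaks, and the rest were left without one. Depth was estimated from the lowest common control level and the smallest peak width, taken as the fragment length. It cannot be read directly from the lists. Recovery, overlap and window counts were tested on simulated data. Intervals are 95% Poisson for counts, Wilson for shares and exact binomial for ratios, and cover counting error only. Scripts used Python 3.11.15, pandas 2.3.3, scipy 1.17.1 and pysam 0.24.0.

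Named were the 9 members, all their H3K27ac peaks, the strongest, promoter and strongest unshared H3K4me1 peak of each, their nearest genes, and related genes with LPS H3K27ac. Other peaks given were chosen after their values were seen. The members, gene lists and motifs were chosen with earlier results of these data known. With 1 library per group, no test between treatments was made. Alternatives changed the window, strength limit, overlap and peak joining, and left out Ier5. The sequences of 4 of 8 member H3K27ac summits are shown, and the sequence and motif matches of 1 are not reported here.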

Additional observations from a re-analysis of the deposited data

How the results depend on the processing

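The count of PBS H3K27ac peaks was also 0 with windows of 100 kb, whereas the other alternatives could not raise it. With windows of 100 kb on either side, LPS H3K27ac peaks numbered 18 at 6 members, and when −log10 q had to reach 5 they numbered 2 at 1 member. The numbers of LPS and PBS H3K4me1 peaks were 39 and 34 within 10 kb, 232 and 206 within 100 kb, 86 and 79 with −log10 q reaching 5, and 72 and 69 after joining peaks within 1000 bp. The share of LPS peaks with a PBS counterpart was 39.7% with 50% of the peak overlapped, 26.2% with 50% of both, 74.4% with that limit on LPS peaks and 52.3% with it on both lists. The share of PBS peaks with an LPS counterpart was 68.0%, 29.6% and 67.1% with 50% of the peak, 50% of both and the limit in both lists. The ratio of covered length was 1.34 within 10 kb and also with that limit, 1.22 with lists of equal size and, chosen after seeing the data, 1.30 without Ier5. The median summit ratio, with all alternatives chosen after seeing the data, was 1.09 over pairs that overlap no further peak, 1.07 against the PBS peak with the nearest summit, 1.05 against that of highest −log10 q and 0.981 without Ier5, which is below 1. The causes of these shifts were not tested, beyond fewer or more peaks entering. No paired analysis was possible because each group had 1 library. Each member H3K27ac peak rests on 6 to 13 fragments.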
